A study of Mus musculus with 10 samples.

Results

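Monocarboxylate carriers move lactate, pyruvate and ketone bodies across the plasma membrane, and lactate dehydrogenase interconverts lactate and pyruvate. The 8 genes described here were the rows of the deposited table whose symbol was Slc16a1, Slc16a3, Slc16a6, Slc16a7, Bsg, Emb, Ldha or Ldhb, and all 8 were found among 25239 symbols. The study compared MLTC-1 cells, a mouse Leydig tumour line, given hymeglusin (n = 3) with MLTC-1 cells given its solvent DMSO (n = 3), and untreated primary Leydig cells from mice aged 24 months (n = 2) with those from mice aged 2 months (n = 2). Hymeglusin inhibits the cytosolic HMG-CoA synthase, and the series is titled for a link between failing ketogenesis of Leydig cells and testicular ageing. The labels give no dose or time of hymeglusin, no strain, and no way of isolating the primary cells. Nothing in them tells separate cultures or animals from repeat libraries, so every p-value rests on a spread between samples that may be technical. MLTC-1 is a single tumour line and stands for no range of Leydig cells.

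Leydig cells lie between the seminiferous tubules and make testosterone. The carriers of this family are proton-coupled, and the direction of transport follows the gradients of substrate and acid. Slc16a1 encodes MCT1, which carries lactate, pyruvate and ketone bodies in most tissues. Slc16a3 encodes MCT4, a carrier known for lactate export from cells with high glycolysis and a known target of hypoxia-inducible factors. Slc16a7 encodes MCT2, which binds pyruvate and lactate with high affinity and is known from neurons, testis and sperm. Slc16a6 encodes MCT7, known as an exporter of ketone bodies from zebrafish liver. Bsg (basigin, CD147) and Emb (embigin) encode membrane glycoproteins that bring the carriers to the cell surface, basigin pairing with MCT1 and MCT4 and embigin with MCT2. Ldha and Ldhb encode the A and B subunits of the lactate dehydrogenase tetramer. Tetramers rich in A are typical of glycolytic tissue, and those rich in B are typical of heart and other oxidative tissue.

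In the GENCODE M21 annotation of GRCm38, the assembly also called mm10, Slc16a1 lies on the plus strand at chr3:104638668-104658462 and Slc16a3 on the plus strand at chr11:120948480-120960868. Slc16a6 lies on the minus strand at chr11:109450855-109473598 and Slc16a7 on the minus strand at chr10:125219270-125389465. Bsg is at chr10:79704491-79711969 and Emb at chr13:117208536-117274415, both on the plus strand. Ldha occupies chr7:46841475-46855627 on the plus strand and Ldhb chr6:142490249-142507957 on the minus strand. The exons of Slc16a6 share 1052 bases with the opposite-strand gene Amz2, and those of Emb share 686 bases with the opposite-strand gene Gm17509. The strand setting of the authors' counting is not given in the sources used here, so the levels of Slc16a6 and Emb are uncertain. Ldha also has processed pseudogenes in the annotation, whose reads the counting could have split.

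Promoter windows are shown for the carriers and dehydrogenases whose counts moved together with hymeglusin. Each runs from 250 bases before to 50 bases after a RefSeq transcript start on GRCm38.p6. Bsg, Slc16a6 and Slc16a7 had no match in that table. Capitals mark ACGTG on either strand, one form of the core in which hypoxia-inducible factors are known to bind; the other form, GCGTG, was counted but is not in capitals. Within CACGTG, an E-box that other factors also bind, the core is counted on both strands. The windows are chr7:46845554-46845853 on the plus strand for Ldha, chr11:120948817-120949116 on the plus strand for Slc16a3, chr3:104638414-104638713 on the plus strand for Slc16a1 and chr6:142507908-142508207 on the minus strand for Ldhb.
Ldha: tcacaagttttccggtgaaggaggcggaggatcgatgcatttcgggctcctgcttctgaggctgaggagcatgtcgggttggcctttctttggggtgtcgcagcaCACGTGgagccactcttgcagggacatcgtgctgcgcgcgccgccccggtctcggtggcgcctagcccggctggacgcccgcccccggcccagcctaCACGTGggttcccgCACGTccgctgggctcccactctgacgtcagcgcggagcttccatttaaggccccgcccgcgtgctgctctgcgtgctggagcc
Slc16a3: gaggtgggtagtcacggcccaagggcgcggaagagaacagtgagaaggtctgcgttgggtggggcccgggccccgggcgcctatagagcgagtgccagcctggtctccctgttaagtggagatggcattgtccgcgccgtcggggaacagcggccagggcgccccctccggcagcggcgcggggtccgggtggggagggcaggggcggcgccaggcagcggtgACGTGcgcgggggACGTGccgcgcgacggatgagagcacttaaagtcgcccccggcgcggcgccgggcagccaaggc
Slc16a1: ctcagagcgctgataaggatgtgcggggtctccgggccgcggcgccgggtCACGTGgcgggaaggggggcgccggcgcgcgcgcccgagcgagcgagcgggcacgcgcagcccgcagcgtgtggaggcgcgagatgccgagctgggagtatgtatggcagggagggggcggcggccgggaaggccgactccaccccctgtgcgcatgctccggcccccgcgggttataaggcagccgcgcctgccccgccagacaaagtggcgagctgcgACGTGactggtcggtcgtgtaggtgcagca
Ldhb: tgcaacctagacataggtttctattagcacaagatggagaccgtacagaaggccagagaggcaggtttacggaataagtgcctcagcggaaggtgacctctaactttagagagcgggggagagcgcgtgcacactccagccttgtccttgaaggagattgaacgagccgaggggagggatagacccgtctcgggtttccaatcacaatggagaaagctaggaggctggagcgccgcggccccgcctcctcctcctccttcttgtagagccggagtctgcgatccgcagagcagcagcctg
The Ldha window held 5 matches, made up of 2 copies of CACGTG and a single match on the minus strand. The Slc16a3 window held 2 matches, both on the plus strand and beginning 27 and 14 bases before the start. In the Slc16a1 window there were 3 matches, from 1 CACGTG and a single match 20 bases after the start. The Ldhb window held 0, as did a second Ldha window at chr7:46846832-46847131 and the Emb window at chr13:117220323-117220622. Of all 32851 windows in the table, 19.6% held at least 1 ACGTG, 8.21% held at least 2 and 7.15% held CACGTG. The other form, GCGTG, searched on both strands, had 2 matches in each of both Ldha windows and the Slc16a1 window, 1 in the Ldhb window and 0 in the Slc16a3 and Emb windows, and 32.4% of all windows held at least 1. A match is a run of letters and not a known site.

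Total counts were 17407460 to 34787330 per library. The 10 genes with most counts held 9.65% and 6.64% of them at 24 months, above the 2.77% to 4.80% of the other 8 libraries. The 24-month replicates differed from each other more than any other pair, with a chi-square of 134 per degree of freedom over genes against 18.9 at 2 months and 3.44 to 7.67 in MLTC-1 cells. The 9 Leydig cell markers summed to 6531 to 6684 CPM with hymeglusin and 8934 to 9182 CPM with DMSO, and to 29164 and 19553 CPM at 24 months against 22150 and 20064 CPM at 2 months. CPM are counts scaled by library size with TMM factors. The MLTC-1 libraries lacked parts of the Leydig programme: Hsd17b3, which makes testosterone from androstenedione, was at 0 to 0.296 CPM in them and at 927 to 1122 CPM in primary cells. Germ cell RNA was in the primary libraries, where 8 spermatid markers summed to 11120 and 5602 CPM at 24 months, against 1654 and 2203 CPM at 2 months, and to 0.338 to 1.13 CPM in MLTC-1 cells. The 12 macrophage markers summed to 3.60 to 4.96 CPM with hymeglusin and 1.16 to 1.82 CPM with DMSO. Of the 3 tested with hymeglusin, Csf1r alone was called, at 1.90 to 2.65 CPM with hymeglusin and 0.0758 to 0.357 CPM with DMSO, and 3 to 8 of the 12 were at 0 in hymeglusin libraries and 8 to 9 in DMSO libraries. In bulk libraries such as these, fewer cells of a type and less RNA per cell cannot be told apart.

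Apart from Bsg, the 8 genes fell into those higher in the tumour line and those higher in primary cells. To set genes side by side, levels in this and the next paragraph are CPM per kb of exons, with all 10 libraries on 1 scale. By group means, Bsg was the most abundant of the 8 in all 4 groups, at 566 ± 39.9 CPM per kb with hymeglusin and 720 ± 1.98 CPM per kb with DMSO (SD, n = 3 each). It stood at 639 ± 188 CPM per kb at 24 months and 358 ± 9.67 CPM per kb at 2 months (SD, n = 2 each). The 24-month range of the basigin transcript overlapped that of both MLTC-1 groups. Ldha averaged 294 ± 22.1 CPM per kb with hymeglusin and 533 ± 18.9 CPM per kb with DMSO, and 109 ± 5.47 CPM per kb at 24 months and 85.0 ± 16.1 CPM per kb at 2 months. Ldhb was instead higher in the primary cells, with 45.6 ± 4.68 CPM per kb with hymeglusin and 63.7 ± 3.67 CPM per kb with DMSO, against 509 ± 173 CPM per kb at 24 months and 302 ± 8.999 CPM per kb at 2 months. No 2 groups neighbouring in the order of levels of either dehydrogenase overlapped in range.

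Among the carriers, Slc16a1 led in every library. It averaged 81.5 ± 4.98 CPM per kb with hymeglusin and 110 ± 4.57 CPM per kb with DMSO, and 44.7 ± 13.4 CPM per kb at 24 months and 53.6 ± 1.23 CPM per kb at 2 months. The lowest level of Slc16a3, the MCT4 gene, was at 24 months with 8.29 ± 5.51 CPM per kb, against 19.5 ± 2.47 CPM per kb at 2 months, 26.8 ± 4.28 CPM per kb with hymeglusin and 73.1 ± 2.66 CPM per kb with DMSO. Slc16a6 was a minor carrier transcript, at 7.76 ± 0.204 CPM per kb with hymeglusin, 7.29 ± 0.157 CPM per kb with DMSO, 3.05 ± 0.307 CPM per kb at 24 months and 2.68 ± 0.355 CPM per kb at 2 months. The ranges at 24 and 2 months overlapped for Slc16a1 and Slc16a6. Slc16a7 was a gene of the primary libraries, with 794 and 2754 counts at 24 months and 1260 and 2435 counts at 2 months, against 0, 0 and 2 counts with hymeglusin and 0 counts in each DMSO library. Those primary counts correspond to 7.61 ± 3.83 CPM per kb at 24 months and 6.25 ± 2.64 CPM per kb at 2 months, with overlapping ranges. Emb, the embigin gene, followed Slc16a7 at a low level, with 60 and 110 counts at 24 months and 69 and 46 counts at 2 months, against 9, 2 and 0 counts with hymeglusin and 2, 2 and 4 counts with DMSO.

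**Figure D1:**
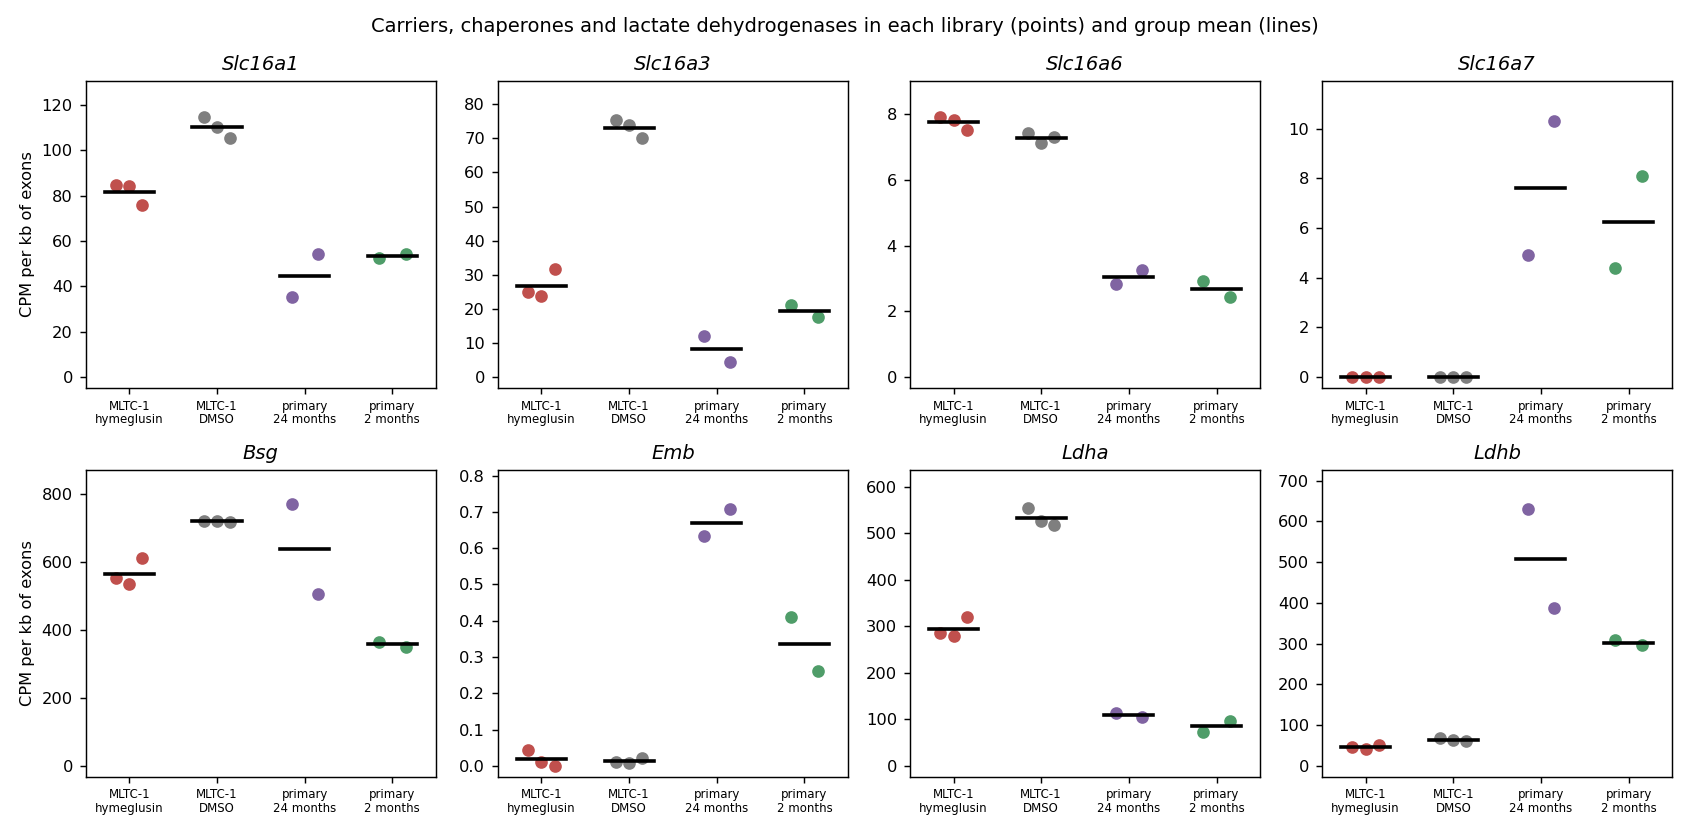
CPM per kb of exons (vertical axis, linear, a scale of its own for each gene) of the 8 genes in each library (points) and their group means (lines), with all 10 libraries on 1 TMM scale. Slc16a7, Emb and Ldhb were higher in the primary cells, while Slc16a1, Slc16a3, Slc16a6 and Ldha were higher in MLTC-1 cells and Bsg was abundant in all 4 groups.

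The first comparison asked how hymeglusin changed these transcripts in MLTC-1 cells. MCT4, MCT1, basigin and both dehydrogenase transcripts were lower with hymeglusin, and the MCT7 transcript did not pass the test. Of the 6 genes with enough counts to be tested, 5 fell and 0 rose at an adjusted p under 0.05 (edgeR quasi-likelihood test, Benjamini-Hochberg adjustment over all genes). The background was high, since 48.3% of the 12873 genes tested were called, 24.5% as lower. The libraries of the groups did not overlap for the same 5 genes, against 54.9% of all tested genes, 27.7% being higher and 27.3% lower. Higher genes made up 49.4% of the calls, and 70.0% under scaling by total counts. The median log2 fold change of all tested genes was 0.01. CPM in this and the following paragraphs on a single comparison are scaled within that comparison.

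Slc16a3 changed most among the carriers. It had 135, 128 and 168 CPM with hymeglusin, against 430, 414 and 401 CPM with DMSO. All 3 hymeglusin libraries were below all DMSO libraries, and the gap between the groups exceeded the spread within either. The log2 fold change was -1.53 (SE 0.0728, 95% interval -1.68 to -1.37, adjusted p = 2.24e-12 by edgeR), and 1.41% of the tested genes had a change of larger size. For Slc16a1, the MCT1 gene, the hymeglusin libraries had 380, 379 and 333 CPM, against 544, 516 and 501 CPM with DMSO. These groups did not overlap either, at a smaller log2 fold change of -0.52 (SE 0.0504, 95% interval -0.62 to -0.41, edgeR adjusted p = 1.2e-10). Slc16a6 had 39.3, 38.8 and 36.5 CPM with hymeglusin and 39.0, 36.8 and 38.3 CPM with DMSO. Here the groups overlapped, with a log2 fold change of 0.01 (95% interval -0.13 to 0.14, edgeR adjusted p = 0.938).

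Bsg, the shared chaperone of MCT1 and MCT4, had 1019, 985 and 1101 CPM with hymeglusin and 1404, 1381 and 1399 CPM with DMSO. The groups did not overlap, and the log2 fold change was -0.43 (SE 0.0459, edgeR adjusted p = 8.93e-10). Slc16a7 and Emb did not pass the count filter in this comparison, so no change of theirs was detectable at this depth. Of the other partners of the carriers, Slc3a2, the CD98 heavy chain that associates with basigin, fell by 0.36 on the log2 scale (edgeR adjusted p = 2.23e-08), averaging 624 ± 13.2 CPM with hymeglusin and 798 ± 11.3 CPM with DMSO (SD, n = 3 each). Ppia, the basigin ligand cyclophilin A, had a log2 fold change of -0.11 (adjusted p = 0.0717), and Nptn, the basigin relative neuroplastin, one of 0.07 (adjusted p = 0.289), neither called by edgeR. The lactate receptor gene Hcar1 had 0 counts in each MLTC-1 library.

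Ldha had the smallest p of the 8 genes. It stood at 958, 936 and 1051 CPM with hymeglusin, against 1968, 1842 and 1844 CPM with DMSO. The highest hymeglusin library was far below the lowest DMSO library, and the log2 fold change was -0.94 (SE 0.0476, 95% interval -1.04 to -0.85, edgeR adjusted p = 6.32e-18). Ldhb had 72.7, 65.3 and 78.5 CPM with hymeglusin, against 113, 105 and 101 CPM with DMSO. It fell too, by 0.56 on the log2 scale (SE 0.0604, edgeR adjusted p = 1.03e-09). Of the other dehydrogenase-like genes, Uevld rose by 0.18 and Ldhd, the D-lactate dehydrogenase of mitochondria, fell by 0.17 on the log2 scale (edgeR adjusted p = 0.0121 and 0.0171), although Ldhd was not called under scaling by total counts or upper quartile (adjusted p = 0.36 and 0.0503). Ldhal6b was not called at 0.54 (adjusted p = 0.168), and Ldhc, the lactate dehydrogenase of germ cells, was at 0 to 0.0666 CPM.

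**Figure D2:**
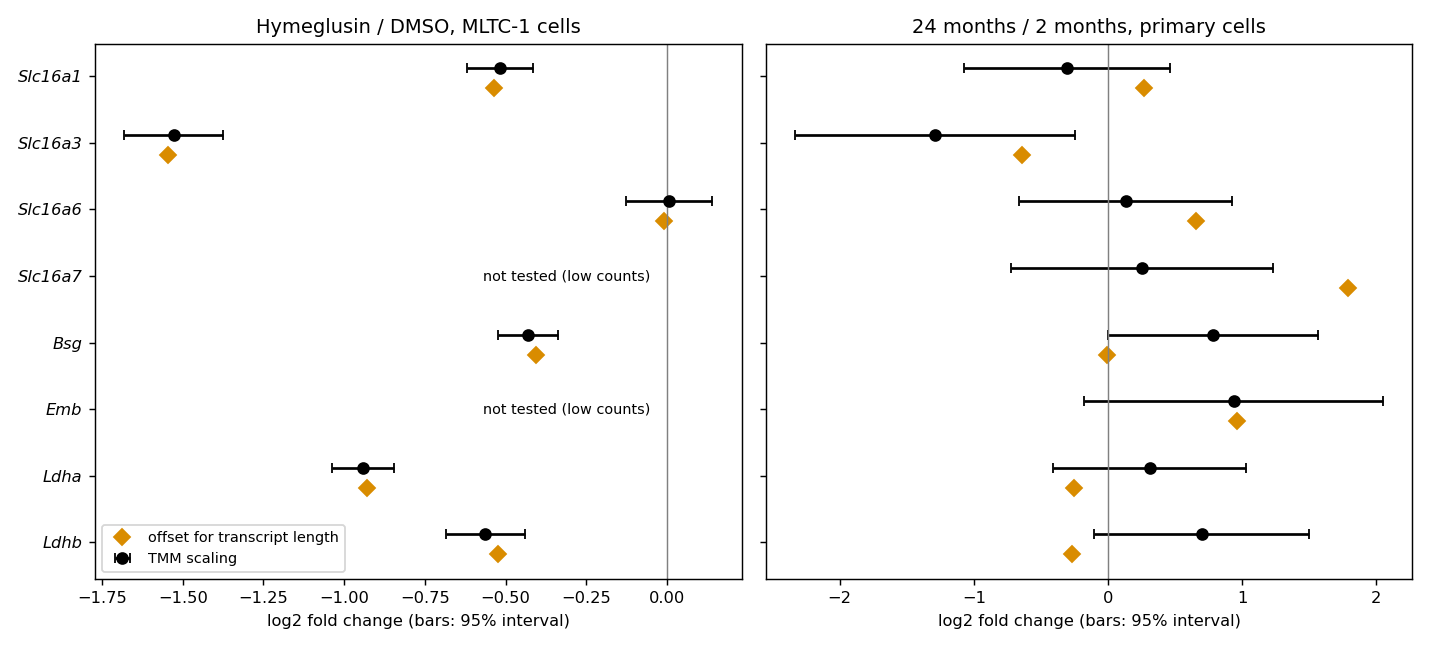
Log2 fold changes (horizontal axis) of hymeglusin over DMSO (left) and of 24 over 2 months (right) with TMM scaling (black points, bars 95% intervals) and after an offset for transcript length (diamonds). The 5 called genes lie left of 0 with hymeglusin under both settings, while Slc16a1, Bsg, Ldha and Ldhb change sides of 0 with age under the offset.

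The calls for Slc16a3 and Ldha held in all 17 alternative settings of this comparison. In a single fit of all 10 libraries, whose shared spread is wider, Slc16a1, Bsg and Ldhb were no longer called, with adjusted p = 0.124, 0.206 and 0.136 by edgeR.

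Lists of genes around lactate and pyruvate were counted in the same comparison, where 23.8% of all tested genes were called higher and 24.5% lower. Of 17 tested genes of glucose uptake and glycolysis, 15 fell and 1 rose, with a median log2 fold change of -0.72 against 0.01 over all genes. Pgk1, phosphoglycerate kinase, fell by 1.07 and Aldoc, an aldolase, fell by 1.40 on the log2 scale, while Pfkfb3, which makes an activator of phosphofructokinase, rose by 0.21 (edgeR adjusted p = 5.31e-20, 3.2e-19 and 0.0234). Of 15 genes of pyruvate entry into mitochondria, 10 fell and 1 rose, with a median of -0.22, and 5 fell and 2 rose under scaling by total counts. Pdk1, a kinase that inhibits pyruvate dehydrogenase, was at 104 ± 2.60 CPM with hymeglusin and 306 ± 8.99 CPM with DMSO (SD, n = 3 each), with log2 fold change -1.56 (edgeR adjusted p = 1.4e-23). Pcx, pyruvate carboxylase, fell by 0.55, and the pyruvate dehydrogenase phosphatase subunit Pdpr rose by 0.19 (edgeR adjusted p = 1.63e-11 and 0.0103). The pyruvate carrier genes Mpc1 and Mpc2 were not called.

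The NADH shuttles, which like lactate dehydrogenase reoxidise cytosolic NADH, had 6 of 9 genes lower and 0 higher, led by Gpd1 at -0.96 and Got2 at -0.43 (edgeR adjusted p = 4.25e-18 and 1.67e-09). In ketone body synthesis and use, 4 of 6 tested genes fell and 0 rose. Among them Acat1, a mitochondrial thiolase of ketone body metabolism, fell by 0.59 on the log2 scale (edgeR adjusted p = 1e-12). Of 12 other known targets of hypoxia-inducible factors, 10 fell and 1 rose, with a median log2 fold change of -0.85. Bnip3 fell by 1.55 and P4ha2 fell by 1.40, while Car9 rose by 0.48 (edgeR adjusted p = 1.01e-19, 4.93e-19 and 0.0161). Of 6 genes of the factors themselves and of oxygen sensing, Vhl and Hif1a fell by 0.23 and 0.17 and Epas1 rose by 0.13 (edgeR adjusted p = 0.00143, 0.00793 and 0.0358), whereas scaling by total counts gave 3 higher and 0 lower. Among 4 tested regulators of oxidative metabolism, Ppara fell by 0.45 and Ppard rose by 0.16 (edgeR adjusted p = 1.5e-09 and 0.0481), the Ppard call being lost with RLE scaling and with the length offset (adjusted p = 0.0501 and 0.0594). The called shares of the oxygen-sensing and oxidative lists were near the 48.3% called of all tested genes.

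In the rest of the carrier family, of 7 tested relatives 3 rose and 1 fell. That is near the background, where 48.3% of all tested genes were called, 23.8% as higher and 24.5% as lower. Slc16a10, a carrier of aromatic amino acids, rose by 0.57 on the log2 scale, Slc16a5 rose by 0.38 and Slc16a13 fell by 0.58 (edgeR adjusted p = 9.54e-06, 0.0408 and 1.95e-05). Slc16a8 at 0.66, Slc16a11 at -0.38 and Slc16a4 at -0.06 were not called (adjusted p = 0.0559, 0.147 and 0.820).

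Because both members of a pair are counted in the same library, their ratio does not depend on library scaling. The ratio of Ldha to Ldhb counts was 13.2, 14.3 and 13.4 with hymeglusin, against 17.4, 17.5 and 18.2 with DMSO. The log2 ratio averaged 3.77 ± 0.0643 with hymeglusin and 4.14 ± 0.0378 with DMSO (SD, n = 3 each), a difference of -0.38 with an exact two-sided permutation p of 0.1, the smallest that 3 against 3 libraries can give. The share of Ldhb in the counts of both was 6.52% to 7.05% with hymeglusin and 5.20% to 5.45% with DMSO, so the A subunit transcript predominated in all 6 libraries. The ratio of Slc16a3 to Slc16a1 counts was 0.356, 0.338 and 0.503 with hymeglusin, against 0.790, 0.803 and 0.799 with DMSO. The difference of the log2 ratios was -1.02 (exact two-sided permutation p = 0.1, also the smallest possible). On a per kb basis Slc16a3 made up 20.5% to 27.6% of the 4 carrier transcripts with hymeglusin and 38.2% to 38.6% with DMSO, and Slc16a6 made up 6.55% to 6.75% with hymeglusin and 3.73% to 3.99% with DMSO. The sum of the 4 carriers was 115 to 117 CPM per kb with hymeglusin and 183 to 197 CPM per kb with DMSO. The ratio of Bsg to that sum was 4.62 to 5.31 with hymeglusin, above the 3.66 to 3.93 with DMSO.

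**Figure D3:**
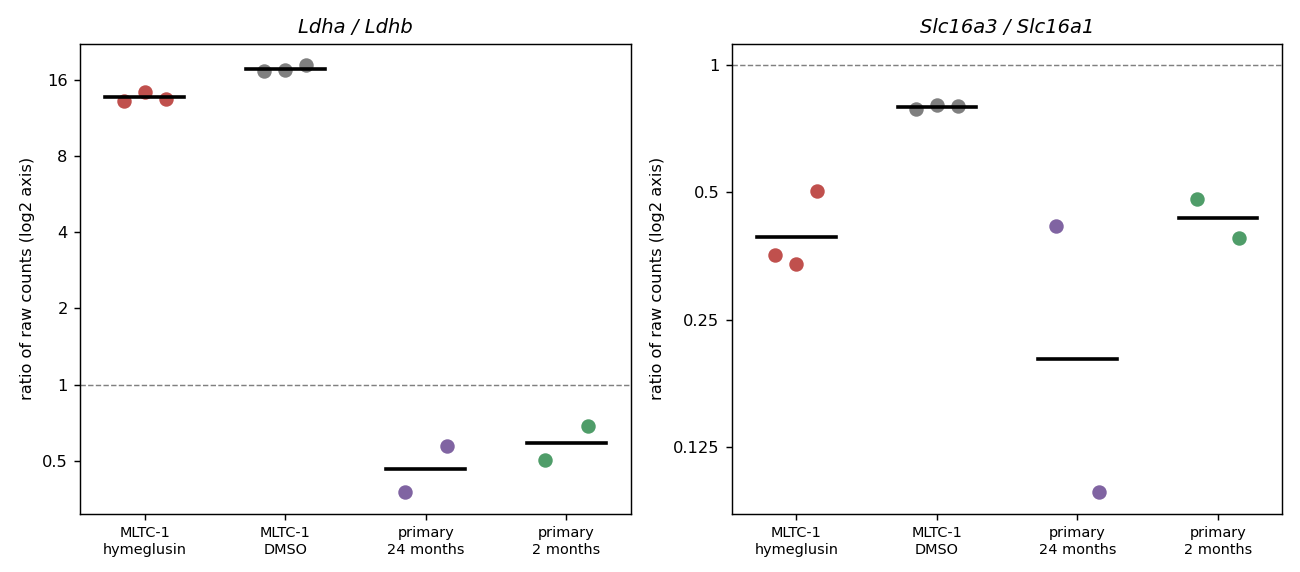
Ratio of Ldha to Ldhb counts (left) and of Slc16a3 to Slc16a1 counts (right) in each library (points) on a log2 axis, with lines at the mean of the log2 ratios. The dehydrogenase ratio lies above 13 in all MLTC-1 libraries and below 1 in all primary libraries, and the carrier ratio of 0.0975 in a 24-month library lies apart from the other 9.

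The second comparison asked whether the transcripts differed with age in primary Leydig cells. None of the 8 genes was called, although 28.6% of the 16381 genes tested were. Higher genes made up 47.3% of those calls, 29.0% of them under scaling by total counts and 61.1% after an offset for transcript length. By edgeR, Slc16a3 and Bsg had an unadjusted p under 0.05 (0.0208 and 0.0499), and DESeq2 and limma-voom each called 1 gene, Slc16a3. The biological coefficient of variation was 0.307, against 0.0509 in the hymeglusin comparison, so the intervals are wide and the missing calls do not show that levels were alike. The groups did not overlap for 6 of the 8 genes, with Bsg, Emb, Ldha and Ldhb higher and Slc16a1 and Slc16a3 lower at 24 months, although for Slc16a1 the gap was under 1 CPM and the ranges overlapped on the scale of all 10 libraries. That share is near the background, since the groups did not overlap for 73.8% of all tested genes, 35.9% being higher and 37.9% lower at 24 months.

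Slc16a3 was at 60.1 and 21.9 CPM at 24 months, against 112 and 87.9 CPM at 2 months. Both older libraries were below both younger ones, and the older ones differed from each other by more than the younger. Its log2 fold change was -1.29 (SE 0.465, 95% interval -2.33 to -0.24, edgeR adjusted p = 0.0632). Without either 24-month library it was called, at -2.24 without replicate 1 and -0.79 without replicate 2 (adjusted p = 6.36e-05 and 0.0063 by edgeR, the lone library being assumed to vary like the others), in fits that called 39.6% and 58.3% of all genes. Slc16a1 had 145 and 224 CPM at 24 months, against 232 and 225 CPM at 2 months, a log2 fold change of -0.31 (SE 0.341, 95% interval -1.07 to 0.46, edgeR adjusted p = 0.513). For Slc16a1 replicate 2 of the 24-month cells lay next to the younger cells, and replicate 1 lay below them. Slc16a6 had 12.8 and 14.9 CPM at 24 months, against 14.2 and 11.1 CPM at 2 months, and Slc16a7 had 53.8 and 114 CPM at 24 months, against 51.5 and 89.6 CPM at 2 months. For both, the groups overlapped, at log2 fold changes of 0.13 and 0.25 (edgeR adjusted p = 0.801 and 0.682).

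Bsg was at 1299 and 858 CPM at 24 months, against 658 and 595 CPM at 2 months, a log2 fold change of 0.78 (SE 0.349, edgeR adjusted p = 0.116). Emb had 4.07 and 4.56 CPM at 24 months, against 2.82 and 1.69 CPM at 2 months, at 0.94 (SE 0.497, edgeR adjusted p = 0.176). Both chaperone transcripts were higher in each older library without passing the test. Ldha had 346 and 324 CPM at 24 months, against 242 and 298 CPM at 2 months, and Ldhb had 919 and 567 CPM at 24 months, against 482 and 434 CPM at 2 months. Their log2 fold changes were 0.31 and 0.70 (SE 0.320 and 0.356, edgeR adjusted p = 0.476 and 0.161). Without 24-month replicate 2, edgeR called 4 of the 8 genes, namely Slc16a3 as above, Slc16a1 at -0.72, Bsg at 0.996 and Ldhb at 0.95 (adjusted p = 0.00616, 0.000781 and 0.00102 for the last 3). That fit called 58.3% of all genes, so 4 of 8 is no more than the background. Without 24-month replicate 1 the values were nearer 0, at -0.07 for Slc16a1, 0.41 for Bsg and 0.26 for Ldhb, and none of these 3 was called.

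Transcript length moved with the age comparison. In the decile of tested genes that held Bsg and Ldhb, with longest transcripts of 1111 to 1662 bases, 31.0% were called higher and 1.94% lower at 24 months, with a median log2 fold change of 0.93. In the decile with 4234 to 5020 bases, which held Slc16a1 and Slc16a3, 2.50% were called higher and 24.0% lower, with a median of -0.70. The decile of longest transcripts held Slc16a7 and had 54.6% called lower and a median of -1.41, whereas Slc16a7 stood at 0.25. With an offset for length in each library, Slc16a7 was called higher at 24 months, at 1.79 (edgeR adjusted p = 0.00301), and Slc16a3 stood at -0.64 (adjusted p = 0.396). The same offset turned the sign of 4 genes, giving Slc16a1 0.27, Bsg -0.01, Ldha -0.25 and Ldhb -0.27, none called. The medians by length ran from -0.05 to 0.03 in the hymeglusin comparison, where the offset changed no call among the 8 genes.

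**Figure D4:**
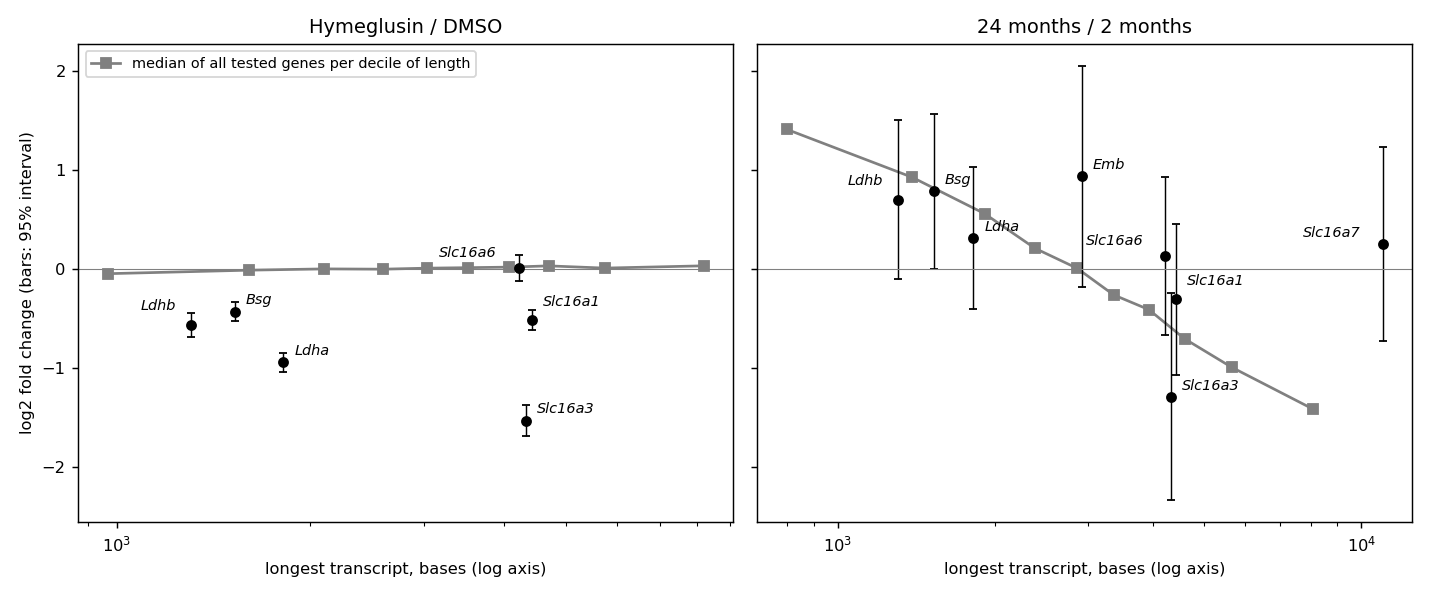
Log2 fold change (vertical axis) against the length of the longest GENCODE M21 transcript (horizontal axis, log scale) for hymeglusin over DMSO (left) and 24 over 2 months (right). Black points are the tested genes of the 8 with 95% intervals, and grey squares are medians of all tested genes in each decile of length, placed at the median length. The grey line is flat with hymeglusin and falls with length between the ages, from 1.41 to -1.41.

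Markers of other cells also differed between the ages. All 8 spermatid markers were called higher at 24 months, 5 of 11 tested macrophage markers and 4 of 4 tested neutrophil markers were called higher, and 0 of these were called lower. Of all tested genes, 13.5% were called higher. The macrophage markers summed to 68.0 and 54.1 CPM at 24 months, against 14.99 and 17.1 CPM at 2 months, and the neutrophil markers to 11.5 and 67.1 CPM at 24 months, against 0.741 and 0.947 CPM at 2 months. The macrophage markers Adgre1, Cd163, Mrc1, Csf1r, Cd68 and Tyrobp were tested and not called. Their log2 fold changes were -1.18, -0.25, 0.05, 0.19, 1.01 and 1.38, so the macrophage list did not move as a whole. Spermatocyte and spermatogonia markers summed to 353 and 478 CPM at 24 months, against 232 and 380 CPM at 2 months, with 1 of 7 called higher. Ldhc, the germ cell dehydrogenase, was at 1240 and 943 CPM at 24 months, against 410 and 641 CPM at 2 months on the scale of all libraries, with a log2 fold change of 1.01 (edgeR adjusted p = 0.0574). With the offset for transcript length, 2 of 8 spermatid, 3 of 11 macrophage and 2 of 4 neutrophil markers were called, all higher. Slc16a7 is known from germ cells as well, and the part of other cells in the levels of the 8 genes was not tested.

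The same gene lists gave fewer calls with age, where 28.6% of all tested genes were called, against 48.3% with hymeglusin. The spread was also wider with age, so fewer calls do not show a smaller response. Of 19 genes of glucose uptake and glycolysis, 2 rose and 0 fell, Aldoc by 1.05 and Eno1 by 1.12 on the log2 scale (edgeR adjusted p = 0.0383 and 0.0496), with a list median of 0.38 against -0.01 over all genes, and 0 were called under scaling by total counts. Of 15 genes of pyruvate entry, Mpc2, a subunit of the mitochondrial pyruvate carrier, rose by 1.70, while Pdk4 fell by 1.58 and Pdpr fell by 2.30 (edgeR adjusted p = 0.0104, 0.0235 and 0.00915). Of 9 shuttle genes Gpd1 alone was called, at -1.35 (edgeR adjusted p = 0.0207). In ketone body metabolism Bdh1 rose by 1.17 and Oxct2a, a testis form of the enzyme that activates ketone bodies, rose by 1.72 (edgeR adjusted p = 0.0285 and 0.0155), out of 9 genes, of which 0 were called under scaling by total counts. Of 12 other hypoxia targets, Ndrg1 and Adm rose by 2.44 and 4.50 and Vegfa fell by 2.58 (edgeR adjusted p = 0.00612, 0.0078 and 0.00413). Of the oxygen-sensing list Hif1an fell by 1.72 and Arnt fell by 1.41, and of the oxidative regulators Ppara fell by 2.27 (edgeR adjusted p = 0.01, 0.0226 and 0.00565). With the offset for transcript length, Hif1an at -0.62, Arnt at -0.88 and Eno1 at 0.67 were not called (edgeR adjusted p = 0.173, 0.066 and 0.172), and of the oxygen-sensing list Epas1 was called higher in their place, at 2.13 (edgeR adjusted p = 0.0155). Under scaling by total counts, Arnt and Pdk4 were not called (edgeR adjusted p = 0.0557 and 0.0622).

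Among relatives of the carriers, 5 of 8 tested genes fell with age and 0 rose, and 3 fell under scaling by upper quartile or by total counts. Of all tested genes, 15.1% were called lower at 24 months. Slc16a8, Slc16a13, Slc16a5 and Slc16a11 fell by 4.63, 1.29, 1.24 and 1.23 on the log2 scale (edgeR adjusted p = 0.0156, 0.0196, 0.0448 and 0.0462). The size for Slc16a8 is uncertain. On the scale of all libraries it was at 0 and 0.0888 CPM at 24 months, against 1.44 and 1.38 CPM at 2 months. Slc16a4 at -1.75, Slc16a9 at 0.63 and Slc16a10 at 0.14 were not called (adjusted p = 0.0698, 0.235 and 0.792). Uevld fell by 1.46 (edgeR adjusted p = 0.0254), a call lost under scaling by total counts and with the length offset (edgeR adjusted p = 0.0576 and 0.123), while Ldhal6b and Ldhd were not called, nor were Ppia, Slc3a2 and Nptn.

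The ratios differed less between the mean values of the 2 ages than between the 24-month replicates. Ldha to Ldhb counts were 0.376 and 0.572 at 24 months, against 0.503 and 0.687 at 2 months, so that Ldhb made up 72.7% and 63.6% of both counts at 24 months and 66.5% and 59.3% at 2 months. The log2 ratio differed by -0.34 (exact two-sided permutation p = 0.667, where 2 against 2 libraries cannot go below 0.333), and by -0.64 without 24-month replicate 2 to -0.04 without 24-month replicate 1 as each library was left out. Slc16a3 to Slc16a1 counts were 0.416 and 0.0975 at 24 months, against 0.484 and 0.391 at 2 months, a log2 difference of -1.11 (exact permutation p = 0.667) that ranged from -2.16 to -0.07 as each library was left out, the value nearest 0 being that without 24-month replicate 2. Per kb, Slc16a7 made up 8.89% and 14.3% of the 4 carriers at 24 months and 5.40% and 9.81% at 2 months, while Slc16a3 made up 22.1% and 6.09% at 24 months, against 26.1% and 21.4% at 2 months. The ratio of Bsg to the 4 carriers was 14.0 and 7.01 at 24 months, above the 4.49 and 4.25 at 2 months. This ratio is not free of the length trend between the ages. The longest transcript has 1526 bases for Bsg and 4219 to 10981 bases for the carriers. The length offset turned the signs of Bsg and Slc16a1 with age, and the ratio was not computed under it.

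**Figure D5:**
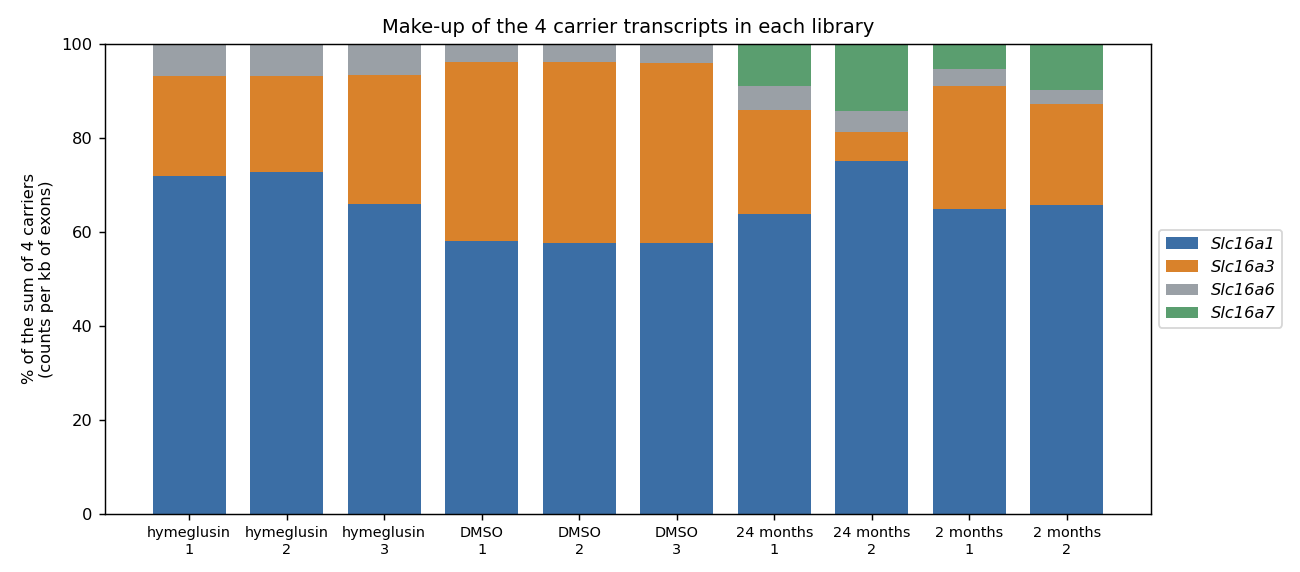
Share of each of 4 carrier transcripts in their sum (vertical axis, percent, counts per kb of exons) in each library (bars). Slc16a1 makes up at least 57.7% of every bar, Slc16a3 is largest with DMSO at 38.2% to 38.6%, and Slc16a7 appears in the primary libraries, at 5.40% to 14.3%.

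To give the levels in the 2 cell sources a spread, DMSO-treated MLTC-1 cells were set against 2-month primary cells in a single fit of all 10 libraries. This comparison shares its controls with both others and crosses a tumour line with fresh tissue cells, so cell type, culture and origin cannot be told apart. All 8 genes were called, where 70.8% of the 17109 genes tested were called, 26.9% as higher and 43.9% as lower, with a median log2 fold change of -0.34. Higher in MLTC-1 cells were Ldha at 2.65 (SE 0.147), Slc16a3 at 1.91 (SE 0.350), Slc16a6 at 1.44 (SE 0.136), Slc16a1 at 1.04 (SE 0.169) and Bsg at 1.01 (SE 0.165), with edgeR adjusted p from 1.94e-07 for Ldha to 0.000742 for Slc16a3. Lower in MLTC-1 cells were Ldhb at -2.25 (SE 0.186, edgeR adjusted p = 3e-06) and Emb at -4.58 (SE 0.791, edgeR adjusted p = 0.000505). Over 20 alternative settings Ldhb ranged from -2.37 to -1.10 and Bsg from 0.88 to 1.93, so these sizes depend on the processing. Transcript length moved with this comparison too. The median log2 fold change was -2.11 in the decile of shortest transcripts, -0.78 in that of Bsg and Ldhb, and 0.17 in the longest. Slc16a7 was at least 2161-fold lower in MLTC-1 cells, set against a limit of 3 counts over the DMSO group. Among other genes, Hk2 at 4.12 and Pfkl at 3.87, the hexokinase and phosphofructokinase of glycolysis, were higher in MLTC-1 cells (edgeR adjusted p = 2.21e-07 and 2.55e-07), within a list of which 14 of 19 were higher and 4 lower. Of 13 hypoxia targets, 10 were higher and 0 lower.

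The effects of hymeglusin and of age were then compared with each other, as the difference of the 2 log2 fold changes in the same fit. These effects share no library. The fit gave both cell sources 1 shared spread, with a biological coefficient of variation of 0.187 against 0.307 in the primary cells alone. The p-values may therefore be too small for a difference that contains the age effect. Of the 17109 genes tested, 38.1% were called, 13.9% as lower with hymeglusin than with age. Of the 6 genes tested in both comparisons 3 were called with the hymeglusin effect below the age effect, at a difference of -1.18 for Bsg (SE 0.228), -1.21 for Ldha (SE 0.187) and -1.23 for Ldhb (SE 0.265), with edgeR adjusted p = 0.00325, 0.00103 and 0.00565. After an offset for transcript length, the differences were smaller, -0.42 for Bsg and -0.67 for Ldha (edgeR adjusted p = 0.0485 and 0.0152), and Ldhb was not called (-0.30, adjusted p = 0.188). Bsg and Ldha were called in all 19 alternatives. For Slc16a3, which had negative values in both comparisons, the difference was -0.21 (SE 0.464, adjusted p = 0.799), and for Slc16a1 and Slc16a6 it was -0.17 and -0.10 (adjusted p = 0.610 and 0.747). It turned to 0.58 for Slc16a3 without 24-month replicate 1 (adjusted p = 0.029) and was -0.75 without 24-month replicate 2 (adjusted p = 0.00686), both by edgeR.

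The genes most like each of the 8 in level were looked up by Pearson's r of log2 CPM over the 10 libraries among 10092 genes. The 10 points form the 2 cell sources and share library depth and cell make-up, so r describes mostly that split and has no test. Slc16a3 was nearest to Cebpa (r = 0.984), Gpd1 (0.972) and Mgat4b (0.971), and Ldha to Tmprss7 (0.994), Trpc7 (0.993) and Pgm1 (0.990). Slc16a1 was nearest to Dipk2a, Znhit6 and Sqle (each 0.990), and Bsg to Mif (0.991), Cyc1 (0.990) and Pla2g5 (0.986). Those nearest to Slc16a7 were Spesp1, a gene of the sperm acrosome, Zbbx and Clec2m, with r of at least 0.999. Ldhb was nearest to Susd3, Ech1 and Pink1 (each 0.998), Slc16a6 to Pms1 (0.997), Lpcat1 (0.997) and Nutf2 (0.996), and Emb to Ccdc7b (0.978), Ntan1 (0.976) and Twist1 (0.976).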

How the data were processed

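RNA sequencing of 10 libraries gave whole-number counts per gene symbol, which the authors deposited unnormalized. Per the submitters' processing notes, the build was mm10 and the tools were HISAT2 2.2.1, featureCounts 2.0.6, fastp 0.23.4 and FastQC 0.12.1, with no role or order given. Libraries were made from total RNA with a NEBNext Ultra RNA kit, per the labels' protocols, and groups came from the sample titles. The table held 25239 symbols with 0 duplicates. A count of 0 in a library allows up to 3 counts, or 0.0845 to 0.219 CPM, and such limits cover counting error only.

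Counts were fitted with edgeR 4.0.16 in R 4.3.3 (filterByExpr, minimum count 10 and total 15; TMM; robust quasi-likelihood F-test, two-sided; Benjamini-Hochberg over all genes tested; threshold 0.05). The hymeglusin and age comparisons were fitted separately, and the others over all 10 libraries. The SE is the log2 fold change divided by the square root of F. Ratios of 2 counts were compared by exact permutation over libraries. Tried as alternatives were DESeq2 1.42.0 and limma-voom (limma 3.58.1), scaling by RLE, upper quartile or total counts, other count filters, loess offsets (span 0.3) for the length and GC content of the longest GENCODE M21 transcript, which covered 98.1% and 97.8% of the genes tested with hymeglusin and with age, the replicate number as a block, a joint fit of every library, and omission of each library in turn. Gene lists and their genes were recounted under the scalings and the length offset, an alternative chosen after seeing the data. The fit was tested on simulated counts. The 8 genes and the lists were chosen with earlier results of these data known. Beside the 8 genes, the text names every tested gene of the 3 lists nearest to them, up to 2 genes per direction of each other list by adjusted p, and the 3 genes nearest in level. Some genes that this rule would name are not reported here.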

Additional observations from a re-analysis of the deposited data

Results flagged for a closer look

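By the contrast of the hymeglusin and age effects in 1 fit of all 10 libraries, a difference was called for 3 of the 6 genes tested in both comparisons. For Bsg the difference was -1.18 on the log2 scale (edgeR adjusted p = 0.00325), from a hymeglusin effect of -0.43 and an age effect of 0.78 in their own fits. For Ldha it was -1.21 (edgeR adjusted p = 0.00103), from -0.94 with hymeglusin and 0.31 with age. For Ldhb it was -1.23 (edgeR adjusted p = 0.00565), from -0.56 with hymeglusin and 0.70 with age. In each case all 3 hymeglusin libraries lay below all DMSO libraries and both 24-month libraries lay above both 2-month libraries, while none of the 3 age effects was called on its own. The groups did not overlap for 54.9% of all tested genes with hymeglusin and 73.8% with age. These 3 genes were also picked by the contrast of the same values, so the lack of overlap adds no support. Of all genes tested 38.1% were called in this contrast. Its SE was 0.228 for Bsg, 0.187 for Ldha and 0.265 for Ldhb. The age effects in the fit of primary cells alone had larger SE, at 0.349, 0.320 and 0.356. The spread shared by all 10 libraries thus understates that of the primary cells, and the p-values of the contrast may be too small. The part of transcript length and of germ cell RNA in the age effects was not tested beyond the length offset, under which the differences were -0.42 for Bsg, -0.67 for Ldha and -0.30 for Ldhb.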

How the results depend on the processing

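Between the hymeglusin and DMSO libraries, the 5 called genes kept their call in 16 of 17 alternatives; in 1 fit of all 10 libraries 2 of the 8 and 934 of all genes were called. Slc16a6, never called, changed sign, to -0.010 under the length offset, to -0.017 under that for length and GC together, and ranged from -0.016 to 0.040 as each library was left out. Between the ages, all genes called numbered 1832 under total counts, 2417 with the length offset, 8868 in the fit of all 10 libraries and 841 to 9887 with each library left out (841 without 2-month replicate 1, 1453 without 2-month replicate 2, 9887 without 24-month replicate 2), against 4685. Of the 8 genes, 1 was called by DESeq2, by limma-voom, without the count filter, with either offset and with the replicate number as a block, 3 in the fit of all 10 libraries, and 0 to 4 with each library left out. With the offset for length and then with that for length and GC, Slc16a1 stood at 0.27 and 0.37, Bsg at -0.0097 and -0.11, Ldha at -0.25 and -0.29 and Ldhb at -0.27 and -0.34, while Slc16a7 was called at 1.79 and 1.86. Slc16a6 stood at -0.060 under total counts, and between -0.059 and 0.31, and Slc16a7 between -0.46 and 0.69, with each library left out. In the contrast of the effects, 4292 genes were called with the length offset against 6519, and with each library left out 3 to 5 of the 8 and 4983 to 9591 of all genes, which was 27.9% to 54.1% of those tested. Under total counts the contrast was 0.075 for Slc16a1, 0.13 for Slc16a3 and 0.17 for Slc16a6; it was 0.0099 for Slc16a3 by limma-voom and 0.020 for Slc16a6 without the count filter. With each library left out it ran from -0.57 to 0.19, -0.75 to 0.58 and -0.31 to 0.14 for these genes. Higher genes made up 63.5% of the contrast's calls and 74.7% under total counts. The cause of these changes was not tested. All 8 genes kept their call between DMSO-treated MLTC-1 and 2-month cells in every alternative that tested them. Sizes moved more than calls, from -2.37 to -1.10 for Ldhb and from 0.88 to 1.93 for Bsg. No strong pairing by replicate number was seen in MLTC-1 cells, where same-numbered libraries deviated together with r of 0.0162, 0.00516 and 0.0763. Hymeglusin replicates 1 and 3 correlated best with their own number, and replicate 2 with DMSO replicate 1 (r = 0.0508). Between the ages r was -0.0642. With 2 libraries per group the deviations mirror each other, so pairing cannot be judged there. As a block the replicate numbers called 6360 genes with hymeglusin, and between the ages 4774 genes and Slc16a3 (-1.45, edgeR adjusted p = 0.012), and changed no other call among the 8. Depth does not limit 6 of the 8 genes in MLTC-1 cells, while Slc16a7 and Emb had at most 2 and 9 counts there.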

Other observations

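The summed level of Ldha and Ldhb was 319 to 370 CPM per kb with hymeglusin and 579 to 622 CPM per kb with DMSO, and it was 744 and 491 CPM per kb at 24 months and 382 and 393 CPM per kb at 2 months. Neither Ldha nor Ldhb was called with age (edgeR adjusted p = 0.476 and 0.161), and the length offset turned the sign of both. The 8 genes together took 0.263% to 0.285% of all counts with hymeglusin and 0.412% to 0.434% with DMSO, and 0.241% and 0.216% at 24 months against 0.185% and 0.195% at 2 months. The ketone body list, whose products these carriers can move, summed to 1209.5 to 1257 CPM with hymeglusin and 1755 to 1898 CPM with DMSO, and to 3586 and 3821 CPM at 24 months, against 4957 and 4524 CPM at 2 months. Of 9 tested carrier relatives, 4 were called lower in DMSO-treated MLTC-1 than in 2-month cells and 1 was called higher. The lower ones were Slc16a13, Slc16a11, Slc16a9 and Slc16a5. Their share is near the background, where 43.9% of all tested genes were called lower and 26.9% higher.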
